A study of Cyprinodon variegatus with 4 samples.

Results

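The transcriptome of larvae exposed to the surfactant Tween 80 alone is set here against that of untreated larvae of the same fish, the sheepshead minnow (Cyprinodon variegatus), a coastal killifish common in ecotoxicology. The surfactant control had Tween 80 at 0.001% for 10 days, and the control had no treatment. All 4 libraries, the control included, are labelled with exposure day 10. The series holds 4 libraries, 1 per group, and this comparison uses 2 of them; the others come from larvae exposed to polyethylene terephthalate (PET) microfibres at 10 and at 100 mg/L and serve only to place a difference. All 4 were made from total RNA of whole bodies, labelled 72 h post fertilisation for the larvae at the start. The labels give no number of larvae per library, and they do not say per sample whether the fibre suspensions held Tween 80. Levels are FPKM (sequenced fragments per length of transcript, scaled to the size of the library), summed over all assembled contigs that share a protein annotation. Of 9609 annotations, the 2686 whose sum averaged at least 10 FPKM over the 4 libraries were compared, as the log2 ratio of surfactant control over control after adding 0.5 FPKM to each. With 1 library per group there is no replicate error: every difference below is between 2 libraries, and no test or p-value is possible.

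Tween 80 (polysorbate 80) is a nonionic detergent in which fatty acid esters are carried on a hydrophilic sorbitan and polyoxyethylene head. In aquatic tests of plastic particles it is added to keep water-repellent particles dispersed, and a surfactant control shows what the dispersant does on its own. Proteins of interest for such an exposure include the plasma proteins that the liver secretes, the enzymes that oxidise and conjugate foreign compounds, lipid carriers, the skin and gut linings that meet the water, and the immediate-early genes that respond to stress or handling.

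The surfactant control and the control were close to each other for most of the 2686 annotations compared. The median log2 ratio was 0.003, the middle 50% of all annotations lay between -0.09 and 0.10, and for 2493 annotations (92.8%) the higher of the libraries exceeded the lower by under 25%. Past 1.5-fold, 18 annotations were higher (0.67%) and 17 lower (0.633%) in the surfactant control. Past 2-fold there were 3 in each direction (0.112% each). Past 25%, meaning that the higher library exceeded the lower by at least 25% after the added 0.5 FPKM, 108 were higher (4.02%) and 85 lower (3.16%) in the surfactant control. Most of the differences past 1.5-fold were in weak transcripts: 25 of the 35 had a mean under 20 FPKM, and 1, the immune sensor NLRC3, had a mean of at least 100 FPKM. Weak transcripts were also common among all 2686 annotations, of which 1164 averaged under 20 FPKM and 406 at least 100 FPKM. Of those under 20 FPKM, 2.15% lay past 1.5-fold, against 1.3% of all annotations. The SD of the log2 ratios was 0.26 among annotations of 10 to 20 FPKM and 0.15 among those of at least 500 FPKM. Depth relative to the control was estimated from the most frequent ratio of control to library value among contigs averaging under 3 FPKM. The estimate was 77.9% for the surfactant control, and 83.5% (10 mg/L) and 79.0% (100 mg/L) for the PET libraries. For the surfactant control, 2266 of 48170 contigs lay at that ratio. The part of depth in the differences of weak transcripts was not tested. Just outside the filter stood DNAJB1 at 9.97 FPKM, ITFG1 at 9.99 and LCTL at 9.99, with log2 ratios of 0.08, 0.15 and 0.10; just inside stood EXTL2 at 10.00, RSL1D1 at 10.0025 and SNX8 at 10.005, with log2 ratios of 0.14, 0.14 and -0.06.

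**Figure D1:**
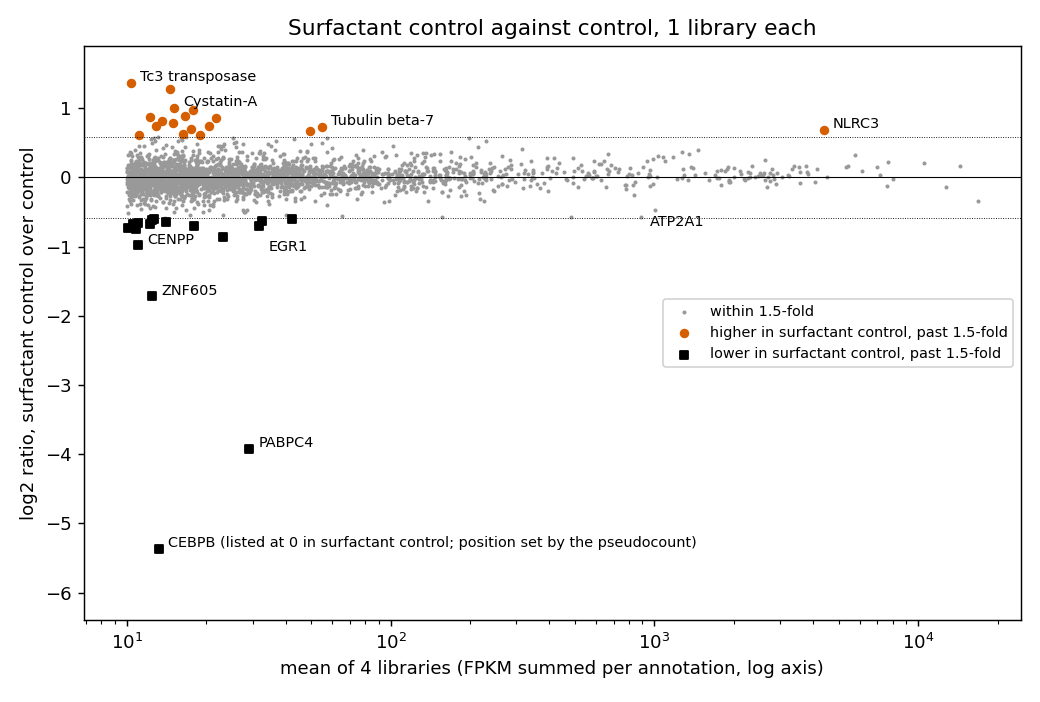
Each point is 1 of 2686 annotations; the x axis is the mean FPKM sum of the 4 libraries on a log scale and the y axis the log2 ratio of surfactant control over control, with dotted lines at 1.5-fold. The 18 higher and 17 lower annotations sit mostly at the low end of the x axis; CEBPB is listed at 0 in the surfactant control, so its position depends on the pseudocount.

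Of the 6 pairs that the 4 libraries form, the surfactant control and the control had the fewest annotations past 1.5-fold. There were 35 between them (1.3%), while PET 10 mg/L differed from the control in 50 (1.86%) and PET 100 mg/L in 70 (2.61%). Compared with the surfactant control, PET 10 mg/L lay past 1.5-fold in 53 annotations (1.97%) and PET 100 mg/L in 56 (2.08%), and 47 separated the PET libraries (1.75%). The distance between the quartiles of the log2 ratios was 0.191 for surfactant control over control, the lowest of the 6, and 0.205 to 0.238 for the others. The SD of the log2 ratios, which a few extreme annotations can set, did not give that order: it was 0.227 for surfactant control over control, 0.208 for PET 10 mg/L over control and 0.222 between the PET libraries. These pairs share libraries and are not independent.

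**Figure D2:**
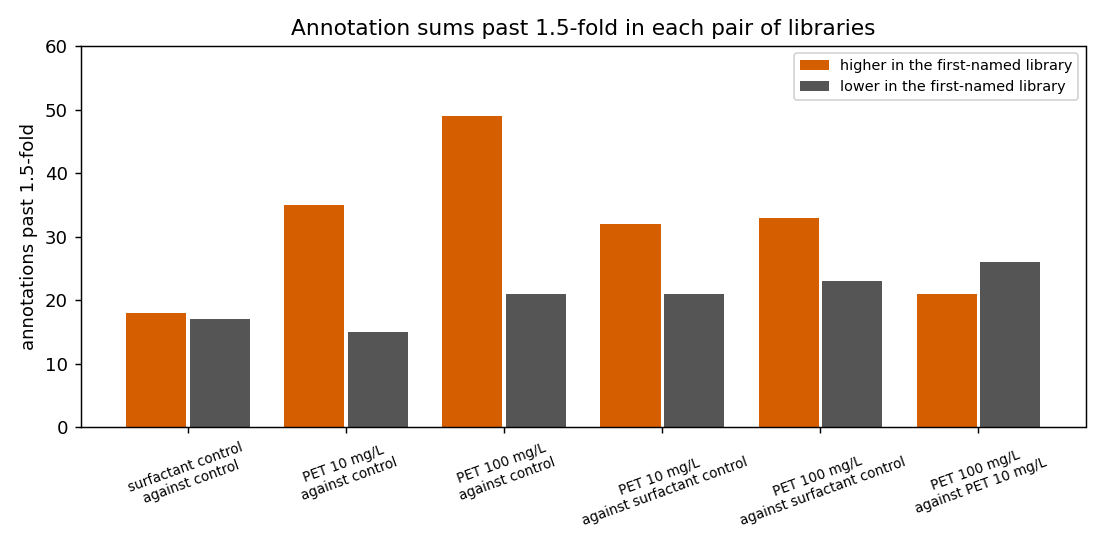
Bars count the annotations past 1.5-fold in each pair of libraries, higher (orange) and lower (grey) in the library named first. The surfactant control against the control, at the left, has 18 higher and 17 lower; the other pairs have 47 to 70 in total.

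Across 33 lists of tissue and pathway proteins, which cover 695 of the 2686 annotations, 24 had a median log2 ratio within 0.1 of 0, 9 had a median above 0.1, and 0 had one below -0.1. The lists above 0.1 were transposon-derived transcripts, lens proteins, mitochondrially encoded subunits, liver plasma proteins, complement and acute phase proteins, xenobiotic enzymes, cholesterol synthesis, peptide hormones and intestinal proteins. The largest of these medians, 0.37, is a change of under 1.5-fold.

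**Figure D3:**
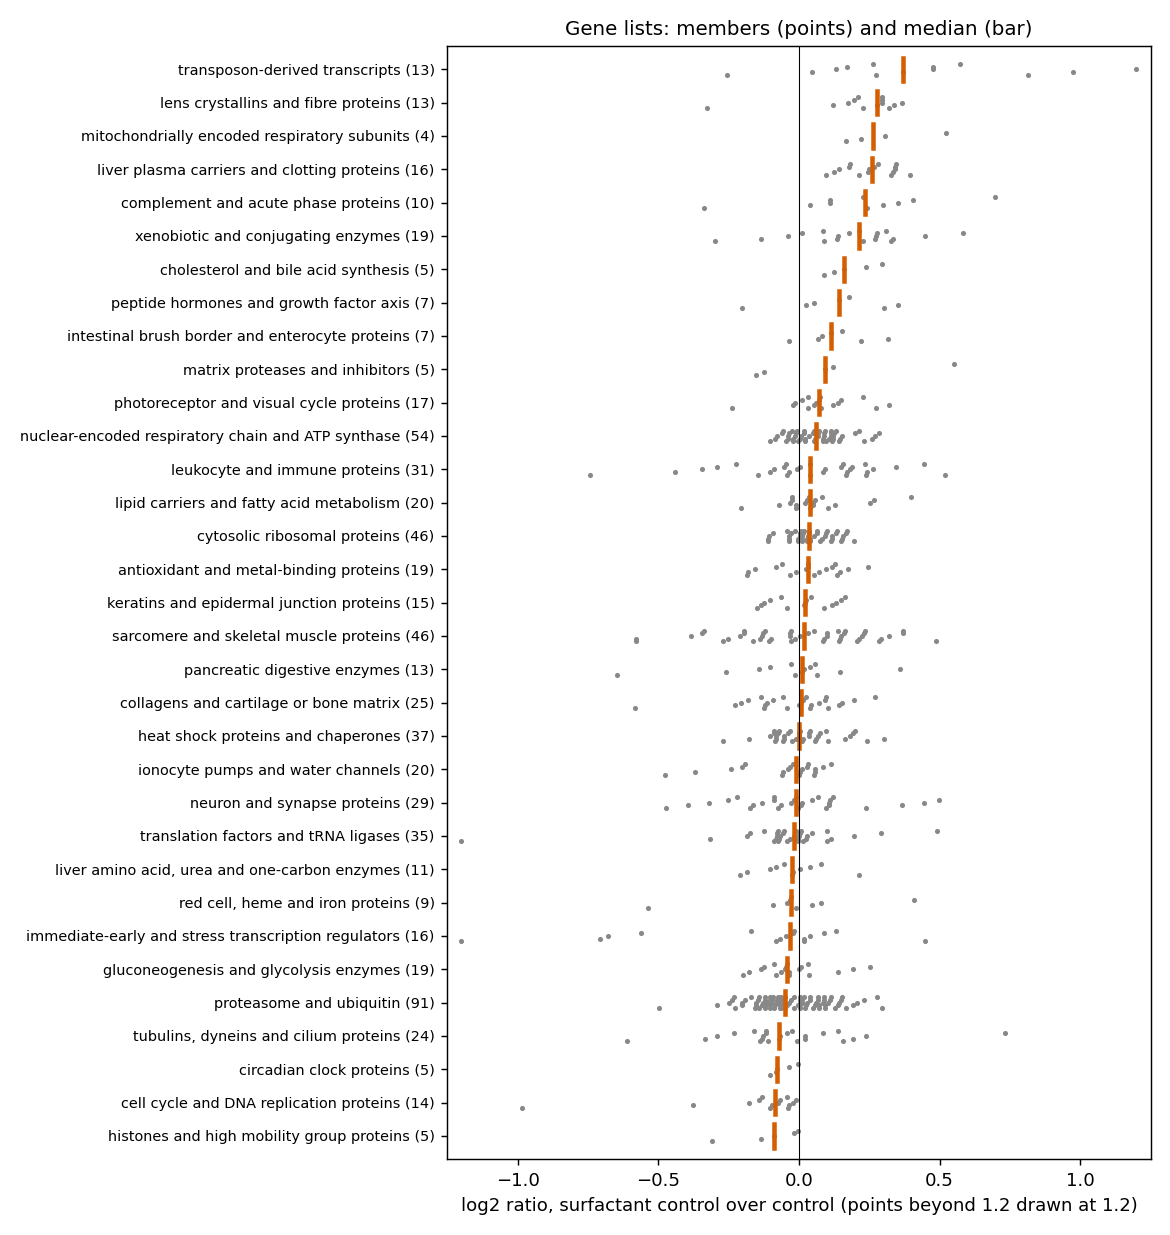
Each row is 1 of 33 protein lists with its number of annotations in brackets; grey points are annotations, the orange bar their median, and the x axis the log2 ratio of surfactant control over control. The medians run from -0.09 for histones to 0.37 for transposon-derived transcripts, and lens and liver plasma members lie almost wholly right of 0.

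Transcripts of plasma proteins assigned to the liver by name were slightly higher in the surfactant control. The tissue that made each of them was not tested. All 16 carriers and clotting proteins kept were higher than in the control, against 51.0% of all annotations. Of the 16, 6 were higher past 25%, against 4.02% of all annotations, and 0 past 1.5-fold. The median log2 ratio was 0.26. Their FPKM summed to 5774 in the surfactant control and 4969 in the control, beside 5664 and 6738 in the PET libraries of 10 and 100 mg/L. RNA of whole larvae cannot tell more cells of a type from more RNA per cell. The control was the lowest of the 4 libraries for 15 of the 16, against 30.8% of all annotations. All library pairs that involve the control share that 1 library.

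Among the protease inhibitors of plasma, the alpha-1-antitrypsin homolog, a serpin that protects tissue from elastase, was at 1364 FPKM in the surfactant control and 1074 in the control, beside 1298 and 1664 at 10 and 100 mg/L PET. The annotation alpha-1-antitrypsin (SERPINA1), the exception to the order above, was at 95.1 FPKM in the surfactant control and 72.3 in the control, beside 65.3 and 82.7. Heparin cofactor 2 (SERPIND1), which inhibits thrombin, was at 39.9 FPKM in the surfactant control and 31.4 in the control, beside 39.4 and 46.5. Their log2 ratios were 0.34, 0.39 and 0.34, and the homolog's main contig alone gave 0.53. The surfactant control thus stood above the control in each, and above both PET libraries only for SERPINA1 in this trio.

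The lipid carriers of plasma were also all higher. Apolipoprotein D, a lipocalin that binds small lipids, was the most abundant member at 1892 FPKM in the surfactant control and 1735 in the control, beside 1777 and 2129 at 10 and 100 mg/L PET, a log2 ratio of 0.13. Apolipoprotein A-I, the main protein of high-density lipoprotein, was listed at 13.5 FPKM in the surfactant control and 10.5 in the control, beside 19.4 and 18.6, a log2 ratio of 0.34. One of its 2 contigs was higher and the other lower. Fibrinogen gamma, the clot-forming chain, and serotransferrin, the iron carrier of plasma, both picked after their values were seen, had log2 ratios of 0.33 and 0.14. Fibrinogen gamma was at 157 FPKM in the surfactant control and 124 in the control, and serotransferrin at 866 in the surfactant control and 784 in the control.

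Complement proteins, the lytic and opsonising cascade that is likewise made largely in liver, had a median log2 ratio of 0.24 over 10 annotations of complement and acute phase proteins. Of these 9 were higher, against 51.0% of all annotations. Past 25%, 3 were higher and 1 lower, against 4.02% and 3.16% of all annotations. Past 1.5-fold, 1 was higher, against 0.67%. Complement factor H, which restrains the alternative pathway, was at 12.2 FPKM in the surfactant control and 7.32 in the control, beside 17.2 and 33.3 at 10 and 100 mg/L PET, a log2 ratio of 0.70. Complement C3, the central component, was at 111 FPKM in the surfactant control and 87.1 in the control, beside 148 and 198, and its 4 contigs of at least 1 FPKM were all higher. In both, the surfactant control lay between the control and the PET libraries.

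LECT2, a chemotactic factor secreted by hepatocytes, went the other way. It was at 51.6 FPKM in the surfactant control and 65.4 in the control, beside 143 and 133 at 10 and 100 mg/L PET, a log2 ratio of -0.34 for surfactant control over control. Complement factor B, the protease of the alternative pathway, was at 23.3 FPKM in the surfactant control and 17.4 in the control, beside 21.7 and 28.8. Fish-egg lectin was the other abundant member, at 98.6 FPKM in the surfactant control and 96.0 in the control.

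The list of liver amino acid enzymes and that of glycolysis and gluconeogenesis had medians near 0. The 11 enzymes of amino acid, urea and one-carbon metabolism had a median of -0.03, with 4 higher and 7 lower and 0 past 25%. Tyrosine aminotransferase, which starts tyrosine breakdown, was at 82.9 FPKM in the surfactant control and 94.2 in the control, beside 131 and 126 at 10 and 100 mg/L PET. For 6 of the 11 the surfactant control was the lowest library, as it was for 29.2% of all annotations. The 19 enzymes of glycolysis and gluconeogenesis, a list not restricted to liver, had a median of -0.04, with 7 higher and 12 lower. Aldolase B, the liver and kidney form, was higher, at 2725 FPKM in the surfactant control and 2285 in the control.

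Enzymes that oxidise or conjugate foreign compounds were mostly higher in the surfactant control by small steps, while CYP1A1, in the same list, was lower. The list of 19 xenobiotic enzymes had a median of 0.21, with 16 higher and 3 lower, where 51.0% of all annotations were higher. Past 25%, 4 were higher and 0 lower, against 4.02% and 3.16% of all annotations. CYP1A1, the monooxygenase induced through the aryl hydrocarbon receptor and a common exposure marker in fish, was at 30.5 FPKM in the surfactant control and 37.6 in the control, beside 53.2 and 52.1 at 10 and 100 mg/L PET. Its log2 ratio was -0.30, and the surfactant control was the lowest of the 4 libraries.

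UDP-glucuronosyltransferase 1-2 (UGT1A2), which adds glucuronic acid, was at 22.3 FPKM in the surfactant control and 14.7 in the control, beside 11.7 and 18.2 at 10 and 100 mg/L PET, a log2 ratio of 0.58. Among the glutathione transferases, GSTA2 was at 117 FPKM in the surfactant control and 85.6 in the control, beside 104 and 101, a log2 ratio of 0.45. Glutathione S-transferase A4, the most abundant of the list, was at 686 FPKM in the surfactant control and 624 in the control, beside 765 and 764. The surfactant control was thus the highest library for UGT1A2 and GSTA2 but not for GSTA4. Prostaglandin reductase 1, which reduces reactive aldehydes and oxidised prostaglandins and belongs to no list, was above each of the other libraries by at least 25% and was picked after its values were seen. It was at 133 FPKM in the surfactant control and 104 in the control, beside 69.2 and 63.7. The 19 antioxidant and metal-binding proteins had a median of 0.03, and 0 of them lay past 25%.

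Among lipid carriers and enzymes of fatty acid metabolism, the liver fatty acid-binding protein had the highest log2 ratio. FABP10A, the carrier of fatty and bile acids in fish liver, was at 1609 FPKM in the surfactant control and 1222 in the control, beside 1557 and 1481 at 10 and 100 mg/L PET, a log2 ratio of 0.40. It was the 1 member past 25% of the 20 in that list, whose median was 0.04 with 13 higher and 7 lower. Past 25%, 4.02% of all annotations were higher. The heart form FABP3 was at 330.2 FPKM in the surfactant control and 317 in the control. The 5 proteins of cholesterol synthesis were all higher, by a median of 0.16 with 0 past 25%, and the control was the lowest library for all 5. Of all annotations, 51.0% were higher, and the control was the lowest library for 30.8%. HMG-CoA reductase, the rate-limiting enzyme, was at 392 FPKM in the surfactant control and 359.7 in the control, beside 417 and 398.

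Crystallins and other proteins of the eye lens, which make the lens transparent and are laid down as fibre cells form, were higher in the surfactant control. Of 13 lens annotations 12 were higher, against 51.0% of all annotations. Past 25%, 2 were higher and 1 lower, against 4.02% and 3.16% of all annotations. The median log2 ratio was 0.28. Their FPKM summed to 9993 in the surfactant control and 8055 in the control, beside 10022 and 10562 at 10 and 100 mg/L PET. The control was the lowest library for 10 of the 13, against 30.8% of all annotations.

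Gamma-crystallin M2, the most abundant lens transcript, was at 5942 FPKM in the surfactant control and 4762 in the control, beside 6004 and 6383 at 10 and 100 mg/L PET, a log2 ratio of 0.32. Gamma-crystallin M3 was at 1329 FPKM in the surfactant control and 1031 in the control, beside 1297 and 1456, a log2 ratio of 0.37. Gamma-crystallin N was at 150 FPKM in the surfactant control and 118 in the control, beside 166 and 152. In each of these the control was the lowest library. Filensin, a beaded-filament protein of lens fibres, was the exception: it was at 13.1 FPKM in the surfactant control and 16.6 in the control, beside 15.4 and 13.1.

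The list of the retina lay closer to 0 than that of the lens. The 17 photoreceptor and visual cycle annotations had a median of 0.07, with 14 higher and 3 lower and 0 past 25%. Of all annotations, 51.0% were higher, and past 25% 4.02% were higher and 3.16% lower. The surfactant control was the highest library for 9 of the 17, against 17.0% of all annotations. RPE65, the isomerase that regenerates visual pigment, was at 83.8 FPKM in the surfactant control and 67.1 in the control, beside 71.8 and 73.2 at 10 and 100 mg/L PET. Red-sensitive opsin was at 78.6 FPKM in the surfactant control and 64.8 in the control, beside 77.1 and 79.7. The difference in size between the lens and retina lists was not tested.

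**Figure D4:**
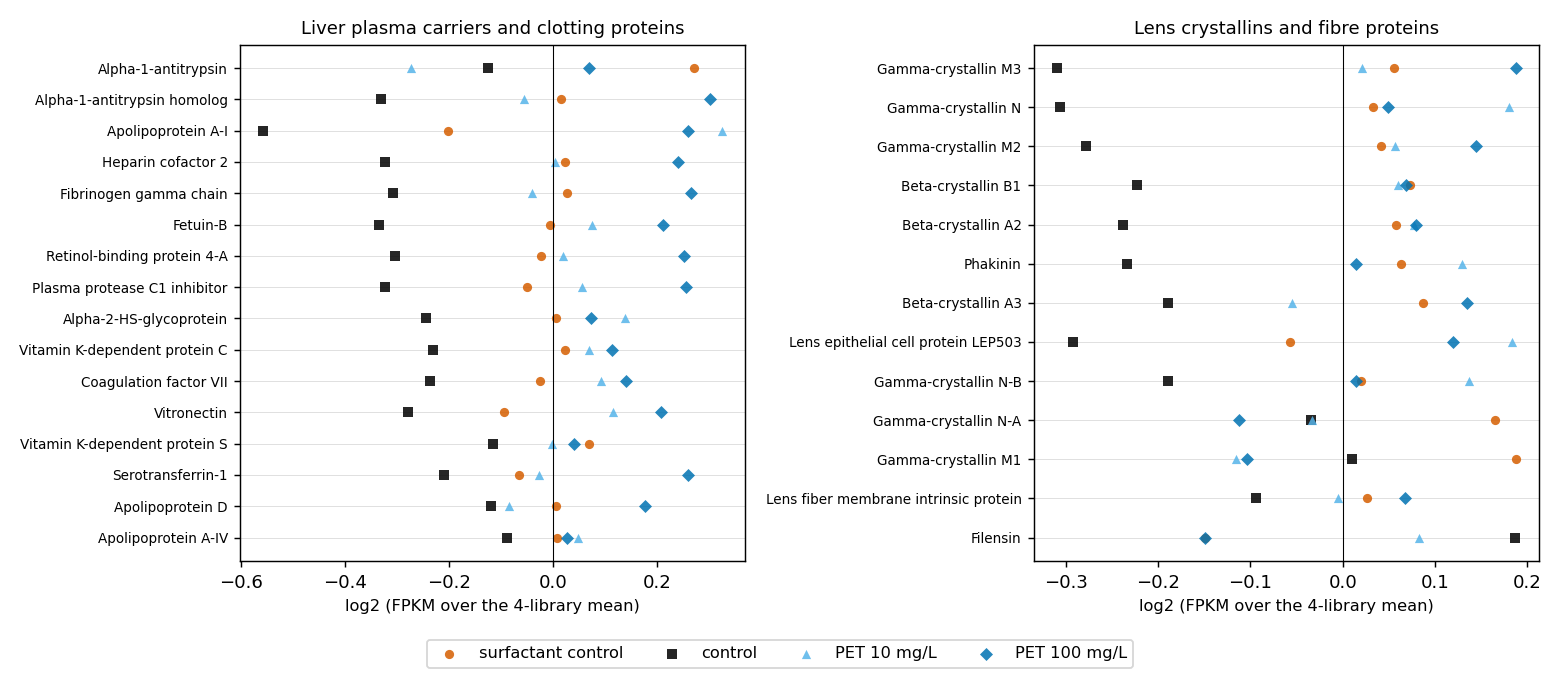
Rows are the 16 liver plasma and 13 lens annotations; the x axis is the log2 of each library's FPKM over the mean of the 4 libraries. The control (black squares) is the leftmost symbol in 15 liver and 10 lens rows. The surfactant control (orange circles) is the rightmost in 2 liver and 3 lens rows, and the leftmost in 0 liver rows and 1 lens row.

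Muscle proteins were level as a list. The 46 sarcomere and skeletal muscle annotations had a median of 0.02, with 24 higher and 22 lower, and 3 higher and 5 lower past 25%. Annotations placed in a fast group and in a slow or cardiac group were then looked at apart, a split made after the values were seen. Their log2 ratios overlapped widely, from -0.58 to 0.29 in the fast group and from -0.38 to 0.49 in the slow and cardiac group, and the difference between the groups was not tested. The 16 annotations of the fast group had a median of -0.07, with 5 higher and 11 lower and 3 lower past 25%. They summed to 62943 FPKM in the surfactant control and 68162 in the control. The 13 slow and cardiac isoforms had a median of 0.16, with 9 higher and 4 lower, and 3 higher and 1 lower past 25%. Of all annotations, 51.0% were higher and 48.8% lower, and past 25% these shares were 4.02% and 3.16%. The split follows annotation names, but not every annotation of the fast group has fast in its name. Skeletal alpha-actin, creatine kinase M-type and skeletal troponin C, for example, do not. The annotations with fast in their name had log2 ratios of -0.34, -0.02, 0.03, 0.15 and 0.24. Contigs of the same assembled gene can fall in both groups. In TR98153|c1_g3, a Myosin-6 contig was at 24.8 FPKM in the surfactant control and 16.2 in the control. A fast myosin heavy chain contig of that gene was at 108 and 127. The fibre type of the contigs was not tested.

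The calcium pump of fast fibres, SERCA1 (ATP2A1), was at 788 FPKM in the surfactant control and 1177 in the control, beside 890.3 and 695 at 10 and 100 mg/L PET, a log2 ratio of -0.58. All 6 of its contigs of at least 1 FPKM were lower. Skeletal alpha-actin, the thin-filament protein, was at 393 FPKM in the surfactant control and 588 in the control, beside 398 and 547, a log2 ratio of -0.58 that rests on 1 main contig. Fast myosin heavy chain, the motor protein and the most abundant annotation of the list, was at 15401 FPKM in the surfactant control and 19442 in the control, beside 15339 and 17208, a log2 ratio of -0.34, with 22 of 29 contigs lower. For these members, and for 10 of the 16 annotations of the fast group, the control was the highest library, against 19.0% of all annotations. Fast troponin I, picked after its values were seen, went against them at 1209 FPKM in the surfactant control and 1026 in the control, beside 1158 and 997. Parvalbumin beta, a calcium buffer of fast fibres likewise picked after its values were seen, did so too, at 11414 FPKM in the surfactant control and 9880 in the control, beside 10155 and 10608.

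Among the slow and cardiac isoforms, the atrial regulatory light chain MYL7, a marker of heart muscle, was at 58.1 FPKM in the surfactant control and 41.3 in the control, beside 47.5 and 52.1 at 10 and 100 mg/L PET, a log2 ratio of 0.49. Slow troponin I (TNNI1) was at 192 FPKM in the surfactant control and 149 in the control, beside 177 and 163, a log2 ratio of 0.37, with 6 of 6 contigs higher. Myoglobin, the oxygen store of oxidative fibres, was at 22.3 FPKM in the surfactant control and 17.2 in the control, beside 27.9 and 21.5. The cardiac calcium channel RYR2 was the member that went the other way past 25%, at 9.02 FPKM in the surfactant control and 11.9 in the control, beside 12.8 and 13.2. Its main contig alone was higher, at 3.24 FPKM in the surfactant control and 2.32 in the control. Of its 4 contigs of at least 1 FPKM, 2 were higher and 2 lower. TRIM54, a ubiquitin ligase of the sarcomere, was at 135 FPKM in the surfactant control and 201 in the control, beside 144 and 147, and the control exceeded each of the other libraries by at least 25%.

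**Figure D5:**
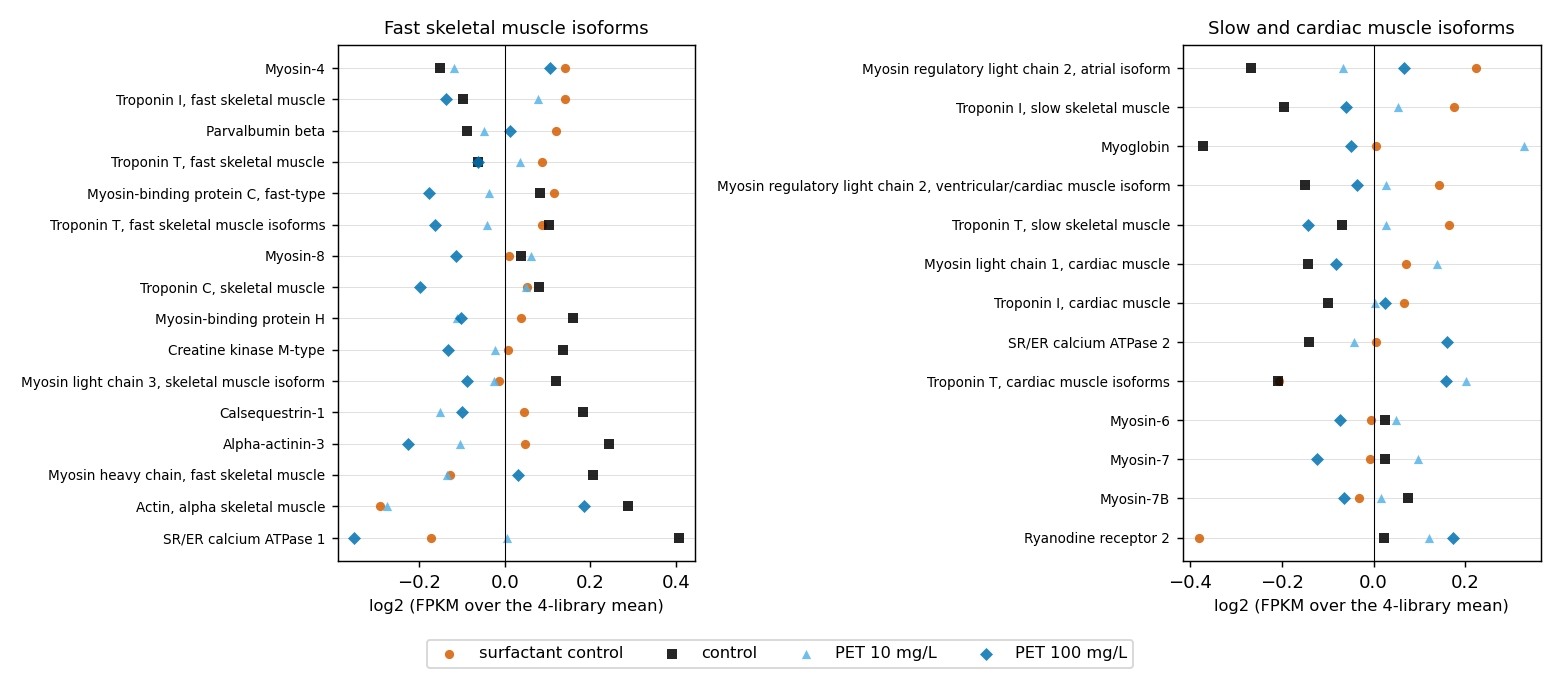
Rows are the 16 muscle annotations of the fast group and the 13 of the slow or cardiac group, split after the values were seen. The x axis is the log2 of each library's FPKM over the mean of the 4 libraries. The control (black squares) is the rightmost symbol in 10 fast rows and the leftmost in 8 slow or cardiac rows. Over all annotations the control was the highest library for 19.0% and the lowest for 30.8%.

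Immediate-early and stress regulators, many of which cells switch on within minutes of a stimulus, held several of the lower transcripts of the surfactant control. The list joins transcription factors with regulators of stress signalling such as DUSP1. Of 16 annotations 10 were lower and 6 higher, with a median of -0.03; 4 were lower and 1 higher past 25%, and 3 were lower past 1.5-fold, against 3.16% of all annotations lower past 25% and 0.633% lower past 1.5-fold. EGR1, a zinc finger factor of this class, was at 24.8 FPKM in the surfactant control and 40.7 in the control, beside 25.8 and 36.0 at 10 and 100 mg/L PET, a log2 ratio of -0.71. DUSP1, the phosphatase that shuts off MAP kinases, was at 8.18 FPKM in the surfactant control and 13.4 in the control, beside 10.2 and 10.4, a log2 ratio of -0.68. JUNB, an AP-1 subunit, was at 52.0 FPKM in the surfactant control and 77.0 in the control, beside 65.6 and 68.0, a log2 ratio of -0.56. The surfactant control was the lowest and the control the highest of the 4 libraries for all of these.

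CEBPB, a basic leucine zipper factor of liver, fat and inflammation, was listed at 0 in the surfactant control and at 20.1 FPKM in the control, beside 14.8 and 18.1 at 10 and 100 mg/L PET. It is a single contig, and no fold is given against a listed 0. IER5L, an immediate-early response gene, went against the others at 24.03 FPKM in the surfactant control and 17.5 in the control, beside 23.1 and 24.3. KLF2, a factor of blood vessel lining and the most abundant member, was at 99.5 FPKM in the surfactant control and 104 in the control, beside 78.1 and 73.0. The 37 heat shock proteins and chaperones had a median of 0.00, with 0 past 25%, and the cytosolic chaperone HSC71 was at 1951 FPKM in the surfactant control and 2024 in the control.

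Small differences in 1 direction were also seen in lists tied to cell division. All 14 cell cycle and DNA replication proteins were lower in the surfactant control, by a median of -0.09, with 2 past 25% and 1 past 1.5-fold. Of all annotations 48.8% were lower at any size, 3.16% past 25% and 0.633% past 1.5-fold. The member past 1.5-fold is the centromere protein CENPP, at 8.08 FPKM in the surfactant control and 16.5 in the control, beside 9.48 and 10.2 at 10 and 100 mg/L PET. Topoisomerase 2-alpha (TOP2A), which untangles replicated DNA, was at 9.41 FPKM in the surfactant control and 12.4 in the control, beside 8.28 and 11.5. PCNA, the sliding clamp of DNA polymerase, was at 99.4 FPKM in the surfactant control and 105 in the control. The 5 histones and high mobility group proteins were also all lower, by a median of -0.09 with 0 past 25%, as were the 5 circadian clock proteins, by a median of -0.08 with 0 past 25%.

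Leukocyte and immune proteins were split, with a median of 0.04 over 31 annotations. Past 25%, 3 were higher and 3 lower, against 4.02% and 3.16% of all annotations. CD40, the receptor through which T cells license B cells and dendritic cells, was at 8.01 FPKM in the surfactant control and 13.7 in the control, beside 10.6 and 11.1 at 10 and 100 mg/L PET. CD48, an adhesion protein of lymphocytes, was at 20.4 FPKM in the surfactant control and 14.1 in the control, beside 14.4 and 13.6. The chemokine CCL20 was at 30.03 FPKM in the surfactant control and 21.9 in the control, beside 24.7 and 26.8.

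A set of immunoglobulin-type surface proteins, gathered after the values were seen, was mostly higher. The HAVCR1 homolog (a TIM family receptor) was at 23.7 FPKM in the surfactant control and 9.53 in the control, beside 15.3 and 9.66 at 10 and 100 mg/L PET. Butyrophilin BTN2A2 was at 22.6 FPKM in the surfactant control and 12.1 in the control, beside 15.99 and 15.9. Their log2 ratios were 1.27 and 0.88, and the surfactant control was the highest library for both. Their main contigs belong to the same cluster of the assembly, TR67962|c1, so the 2 annotations may not be separate observations. The HAVCR1 contig was at 22.8 FPKM in the surfactant control and 9.09 in the control, and the BTN2A2 contig at 9.16 and 5.09. How reads were shared between them was not tested. Of the 9 members 4 were higher and 1 lower past 25%, against 4.02% and 3.16% of all annotations. The lower one, the polymeric immunoglobulin receptor PIGR, which carries antibody across mucosal linings, was at 114 FPKM in the surfactant control and 144 in the control, beside 139 and 155.

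Cystatins, inhibitors of cysteine proteases, were higher in the surfactant control than in the control; they too were grouped after the values were seen. Cystatin-A was at 28.2 FPKM in the surfactant control and 13.8 in the control, beside 9.39 and 9.05 at 10 and 100 mg/L PET, a log2 ratio of 1.01 with all 3 contigs higher. Cystatin was at 224 FPKM in the surfactant control and 151 in the control, beside 189.8 and 226. Cystatin-B was at 206 FPKM in the surfactant control and 152 in the control, beside 217 and 284. Cystatin-A was therefore highest in the surfactant control, while cystatin and cystatin-B were lowest in the control.

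NLRC3, a cytoplasmic sensor of the NLR family that is greatly expanded in fish, had the largest difference among abundant annotations. Summed over 58 contigs it was at 5804 FPKM in the surfactant control and 3605 in the control, beside 6239 and 1977 at 10 and 100 mg/L PET, a log2 ratio of 0.69. One contig carried most of this, at 4895 FPKM in the surfactant control and 2714 in the control, beside 5315 and 1071. Of the 46 contigs of at least 1 FPKM, 24 were higher and 22 lower. The level of this contig did not follow the presence of fibres or their dose. NLR contigs are alike in sequence, and how reads were shared among them was not tested.

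Transposon-derived transcripts had the highest median of the 33 planned lists, 0.37 over 13 annotations. Of these 12 were higher, 7 of them past 25% and 3 past 1.5-fold. Of all annotations kept, 51.0% were higher, 4.02% past 25% and 0.67% past 1.5-fold. The Tc3 transposase was at 13.7 FPKM in the surfactant control and 5.0 in the control, beside 11.1 and 11.8 at 10 and 100 mg/L PET, a log2 ratio of 1.37 that was 3.08 for its main contig. The Pol polyprotein of transposon 17.6 was at 18.2 FPKM in the surfactant control and 9.0 in the control, beside 22.7 and 21.1. The log2 ratio was 0.97, and 0.21 over contigs above 0 in all 4 libraries. The main contig gave 2.59, a value that rests on the pseudocount. That contig held 2.51 FPKM in the surfactant control against a listed 0 in the control. The Gag-Pol polyprotein was at 18.55 FPKM in the surfactant control and 10.3 in the control, beside 14.5 and 11.1. All 3 had the control as the lowest library. These sums run over 8 to 68 contigs each. When the main contig stood for each annotation, the list median was -0.044, so the direction depended on which contigs were counted.

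Mitochondrially encoded subunits of the respiratory chain were higher in the surfactant control in all 4 annotations kept, by a median of 0.26 with 1 past 25%. Of all annotations, 51.0% were higher, and 4.02% were higher past 25%. NADH dehydrogenase chain 1 (MT-ND1) was at 270.0 FPKM in the surfactant control and 188 in the control, beside 302 and 163 at 10 and 100 mg/L PET. Cytochrome c oxidase subunit 1 was at 14881 FPKM in the surfactant control and 13263 in the control, beside 15079 and 14557. The 54 nuclear-encoded subunits had a median of 0.06 with 0 past 25%, and the 46 cytosolic ribosomal proteins a median of 0.03 with 0 past 25%.

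The lists of skin, cartilage and pancreas had medians near 0, and that of the intestine was slightly above 0. Keratins and epidermal junction proteins had a median of 0.02 over 15 annotations with 0 past 25%, and keratin 13, the most abundant, was at 7676 FPKM in the surfactant control and 6917 in the control, beside 7195 and 6191 at 10 and 100 mg/L PET. Collagens and skeletal matrix proteins had a median of 0.01 over 25 annotations. COMP, a protein of cartilage and tendon matrix, was the 1 member past 25%, at 11.6 FPKM in the surfactant control and 17.6 in the control, beside 13.1 and 13.7. Pancreatic digestive enzymes had a median of 0.01 over 13 annotations, with 1 higher and 1 lower past 25%, against 4.02% and 3.16% of all annotations. Trypsin-1, a main digestive protease, was at 7081 FPKM in the surfactant control and 6884 in the control. The higher member was the trypsin inhibitor SPINK1, at 135 FPKM in the surfactant control and 105 in the control, beside 112 and 126. The lower one, also past 1.5-fold, was chymotrypsin B, at 10.35 FPKM in the surfactant control and 16.5 in the control, beside 11.9 and 17.8, a log2 ratio of -0.65 that was -0.36 for its main contig. Intestinal proteins had a median of 0.11 over 7 annotations, with 6 higher, 1 lower and 0 past 25%, where 51.0% of all annotations were higher. The control was the lowest library for 6, against 30.8% of all annotations. The brush border protease meprin A beta was at 108 FPKM in the surfactant control and 86.4 in the control, beside 105 and 120.1. The high levels of crystallin, trypsin, keratin and fast myosin transcripts in both libraries match the label of whole bodies.

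The lists of ion pumps, nerve and blood had medians near 0, with members past 25% in each. Of all annotations, 4.02% were higher and 3.16% lower past 25%. The 20 ionocyte pumps and water channels had a median of -0.01, with 0 higher and 2 lower past 25%. The proton pump subunit ATP6V0E2 was at 22.3 FPKM in the surfactant control and 31.2 in the control, beside 28.3 and 29.0 at 10 and 100 mg/L PET. ATP6V1A, the catalytic subunit of the same pump, was at 9.52 FPKM in the surfactant control and 12.4 in the control, beside 12.3 and 12.1. For both pump subunits the surfactant control was the lowest library. The 29 neuron and synapse proteins had a median of -0.01, with 3 higher and 2 lower past 25%. MAP6, which stabilises microtubules, was at 14.8 FPKM in the surfactant control and 10.4 in the control, beside 15.8 and 8.80. The glutamate receptor GRIA3 was at 18.2 FPKM in the surfactant control and 13.2 in the control, beside 12.8 and 15.2. The third higher member, the myelin protein MOG, picked after its values were seen, had a log2 ratio of 0.37. On the lower side, NEUROD2, a factor of neuron differentiation, had a log2 ratio of -0.39, and ELAVL4, an RNA-binding protein of neurons, was at 15.03 FPKM in the surfactant control and 21.1 in the control, beside 20.7 and 25.3. Among 9 red cell, heme and iron proteins, with a median of -0.03 and 1 higher and 1 lower past 25%, hemoglobin alpha-1 was at 389.9 FPKM in the surfactant control and 293 in the control, beside 294 and 280.1. The red cell anion exchanger SLC4A1 went the opposite way, at 16.2 FPKM in the surfactant control and 23.7 in the control, beside 13.8 and 15.98.

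The 7 peptide hormones and growth factor proteins had a median of 0.14, with 6 higher and 1 past 25%, against 51.0% and 4.02% of all annotations. The median depended on the filter: it was 0.027 with a mean of at least 1 FPKM and 0.33 with at least 30 FPKM. The member past 25% was natriuretic peptide A (NPPA), a hormone of the heart atrium, at 33.3 FPKM in the surfactant control and 25.97 in the control, beside 36.9 and 30.6 at 10 and 100 mg/L PET. Peptide Y was at 30.6 FPKM in the surfactant control and 24.7 in the control, beside 38.3 and 37.3. In both, the control was the lowest library.

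Few annotations set the surfactant control apart from all other libraries. Past 1.5-fold from each of the other 3, the surfactant control was higher for 2 annotations (0.0745%) and lower for 3 (0.112%), and the control was higher for 2 (0.0745%) and lower for 4 (0.149%). By at least 25% from each of the other 3, the surfactant control was higher for 17 (0.633%) and lower for 25 (0.931%), and the control higher for 13 (0.484%) and lower for 33 (1.23%). The surfactant control was above the rest for cystatin-A and the HAVCR1 homolog, and below the rest for CEBPB, ZNF605 and ZBTB14. ZNF605, a zinc finger protein, was at 4.79 FPKM in the surfactant control and 16.9 in the control, beside 14.2 and 14.1 at 10 and 100 mg/L PET. ZBTB14, a zinc finger repressor, was at 30.1 FPKM in the surfactant control and 46.2 in the control, beside 47.6 and 45.6. The control was above the rest for CENPP and for the splicing factor SCAF1, at 31.2 FPKM in the surfactant control and 48.7 in the control, beside 25.3 and 24.8. It was below the rest for the Tc3 transposase, the Pol polyprotein of transposon 17.6, complement factor H and cytosol aminopeptidase (LAP3). LAP3, which trims amino acids from peptides, was at 16.9 FPKM in the surfactant control and 10.9 in the control, beside 27.0 and 21.3. Its log2 ratio was 0.61, and 0.50, under 1.5-fold, for its main contig. Another contig held 1.79 FPKM in the surfactant control against a listed 0 in the control.

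The other large differences fell in single genes of varied function. Poly(A)-binding protein PABPC4 was at 2.26 FPKM in the surfactant control and 41.4 in the control, beside 70.8 and 2.2 at 10 and 100 mg/L PET, so its level did not sort the libraries by treatment. Its main contig was listed at 0 in the surfactant control and at 39.9 FPKM in the control, beside 68.7 and 0, and over contigs above 0 in all 4 libraries its log2 ratio was -0.42. Cytoplasmic actin (ACTB), a cytoskeletal protein of all cells, was at 65.1 FPKM in the surfactant control and 40.8 in the control, beside 41.7 and 51.1, with 4 of 4 contigs higher. Tubulin beta-7 was at 64.4 FPKM in the surfactant control and 38.6 in the control, beside 44.2 and 72.2. CD2BP2, a spliceosome-associated protein, was at 32.9 FPKM in the surfactant control and 17.99 in the control, beside 21.9 and 14.7. Neuropathy target esterase (PNPLA6), a phospholipase, was at 13.6 FPKM in the surfactant control and 8.70 in the control, beside 11.7 and 10.5, a log2 ratio of 0.61 that was 0.18 for its main contig. Pyrin (MEFV), an inflammasome sensor, was at 9.03 FPKM in the surfactant control and 14.7 in the control, beside 13.9 and 11.3, a log2 ratio of -0.67 that was -0.34 for its main contig.

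Among the remaining annotations past 1.5-fold, 4 were higher in the surfactant control. Protocadherin beta-9 (PCDHB9), an adhesion protein of neurons in mammals, was at 15.3 FPKM in the surfactant control and 8.11 in the control, beside 10.5 and 15.04 at 10 and 100 mg/L PET. Caprin-2, an RNA-binding protein, was at 19.7 FPKM in the surfactant control and 11.25 in the control, beside 16.01 and 13.2. Nuclear factor 7 (xNF7-O), a TRIM protein first described in Xenopus eggs, was at 27.4 FPKM in the surfactant control and 16.1 in the control, beside 17.8 and 20.9. Their log2 ratios were 0.88, 0.78 and 0.75, and the surfactant control was the highest library for each. The zinc finger protein ZNF527 was at 14.75 FPKM in the surfactant control and 8.59 in the control, beside 16.3 and 11.8, a log2 ratio of 0.75 that was 0.29 for its main contig.

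Another 3 were lower in the surfactant control. HERC1, a large ubiquitin ligase, was at 7.46 FPKM in the surfactant control and 12.7 in the control, beside 12.4 and 7.91 at 10 and 100 mg/L PET. Nucleoporin-like protein 2 (NUPL2), of the nuclear pore, was at 8.04 FPKM in the surfactant control and 13.04 in the control, beside 12.8 and 10.4. The surfactant control was the lowest library for both. An annotation of tubulin alpha was at 10.6 FPKM in the surfactant control and 16.4 in the control, beside 9.99 and 12.9. The log2 ratios of HERC1 and of this tubulin, -0.73 and -0.61, were both -0.09 for the main contig. A further 3 annotations past 1.5-fold match an uncharacterized protein or proteins of viruses or bacteria and are not described.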

How the data were processed

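RNA of whole larvae was sequenced in 4 libraries, 1 per group. The authors deposited 1 table of FPKM values per assembled contig with a protein annotation where there was a match. bcl2fastq 2.20.0.422, RSEM and Bowtie are named in the submitters' processing notes; the assembly and its annotation are not given in the sources used here. Total counts were not used here, so depth is known only relative to the control.

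FPKM was summed over the contigs of each annotation, sums averaging at least 10 FPKM were kept, and log2 ratios were taken with a pseudocount of 0.5 (Python 3.11.15, pandas 2.3.3, NumPy 2.4.6, matplotlib 3.10.9). FPKM is relative, so a rise in abundant transcripts lowers the rest. The pseudocount understates differences of weak transcripts. The calculation was tested on simulated data. Lists were built by protein name: 33 planned and 8 added after the values were seen, with 79 names of other proteins left out. The members and lists were chosen with earlier results of these data known.

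The annotations named were taken from the 20 highest and 20 lowest ratios, from up to 4 members per list with the largest differences and 2 with the highest mean, and from up to 12 annotations per direction that set 1 library apart; not all of these are printed, and 1 annotation past 1.5-fold is not reported here. The lists added later hold 5 cystatins and related inhibitors (median 0.44), 6 NLR proteins (0.07), 13 TRIM proteins (-0.03), 25 zinc finger proteins (-0.04), 4 protocadherins (-0.03) and 9 surface proteins (0.28), besides the muscle lists. The remaining planned lists had medians of -0.07 for 24 tubulin and cilium proteins, -0.05 for 91 proteasome and ubiquitin proteins, -0.02 for 35 translation proteins and 0.09 for 5 matrix proteases. Of the contig names, 0 matched the RefSeq gene table, so no sequence is shown.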

Additional observations from a re-analysis of the deposited data

How the results depend on the processing

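No paired analysis was possible because each group has 1 library; for the same reason no replicate could be left out. Median-of-ratios scaling and pseudocounts of 0.1 and 1 FPKM kept every count within 1.5 times and every list median within 0.1. Of 67 log2 ratios of single annotations, 23 moved by at least 0.1 when the main contig stood for the annotation, 9 over contigs above 0 in all 4 libraries (which gave no value for CEBPB), 2 under each pseudocount and 0 under median-of-ratios scaling. Counts of annotations past 1.5-fold depended on the filter: 341 were higher and 304 lower with a mean of at least 1 FPKM, 997 and 857 with no filter, and 3 and 3 with a mean of at least 30 FPKM. The counts in this paragraph are not shares, because each filter keeps a different number of annotations. The filter used above keeps 2686 of 9609. At 2-fold there were 3 and 3, at a difference of 25% 108 and 85, and over contigs above 0 in all 4 libraries 11 were lower. Annotations past 1.5-fold from each of the other libraries, in the order surfactant control higher, surfactant control lower, control higher and control lower, numbered 84, 102, 45 and 105 with a mean of at least 1 FPKM, 331, 211, 213 and 229 with no filter, and 0, 1, 1 and 0 with a mean of at least 30 FPKM. At a difference of 25% they numbered 17, 25, 13 and 33. At 2-fold the surfactant control was higher for 1, the control higher for 0 and lower for 1, and over contigs above 0 in all 4 libraries the control was lower for 1. The complement median was 0.12, 0.11 and 0.11 with a mean of at least 1 FPKM, of at least 30 FPKM and with no filter. The transposon median was 0.21, 0.089 and 0.10 in the same order, 0.16 over contigs above 0 in all 4 libraries, and reversed to -0.044 with the main contig. The peptide hormone median was 0.027 with a mean of at least 1 FPKM and 0.33 with at least 30 FPKM, where the leukocyte median was 0.17. With no filter the liver plasma median was 0.13 and the xenobiotic median 0.089. Fewer or more annotations enter under each filter; other causes were not tested.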

Other observations

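Contigs without a protein match differed more often than those with one. Of 5054 contigs without annotation that averaged at least 10 FPKM, 210 were higher and 193 lower past 1.5-fold in the surfactant control than in the control (7.97%). Of 2733 single contigs with annotation at that level, 28 were higher and 28 lower (2.05%). The difference between these shares was not tested, and what the unmatched contigs encode is not known from the files.

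Contig TR141259|c0_g1_i1 was at 11.5 FPKM in the surfactant control and 0.72 in the control, beside 7.46 and 20.8 at 10 and 100 mg/L PET. Contig TR44240|c0_g1_i1 was at 36.9 FPKM in the surfactant control and 3.92 in the control, beside 29.97 and 12.03. In the other direction, TR32587|c0_g1_i1 was listed at 0 in the surfactant control and at 50.2 FPKM in the control, beside 0.92 and 0.49, and TR87331|c0_g1_i4 at 0 in the surfactant control and 32.3 in the control, beside 8.89 and 25.8. The first pair was low in the control relative to all other libraries; TR32587|c0_g1_i1 was high in the control relative to all others, and TR87331|c0_g1_i4 low in the surfactant control.

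Presenilin-1 and perlecan were among the annotations that were lower in the control than in each of the other libraries by at least 25%. Presenilin-1, the catalytic subunit of gamma-secretase, was at 43.95 FPKM in the surfactant control and 29.7 in the control, beside 53.6 and 45.1 at 10 and 100 mg/L PET. Perlecan (HSPG2), a basement membrane proteoglycan, was at 63.05 FPKM in the surfactant control and 46.9 in the control, beside 63.1 and 66.95. Of the 108 annotations higher past 25% in the surfactant control 40 belong to a planned protein list, and of the 85 lower ones 27 do. The planned lists hold 695 of all 2686 annotations compared (25.9%). The difference from that share was not tested.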
